A study of Mus musculus with 2 samples.

Results

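The genes described here encode 33 chains of receptors for interleukins other than IL-2, a set that includes Crlf2, the receptor chain for the epithelial cytokine TSLP, and Csf2rb, the chain shared by the IL-3, IL-5 and GM-CSF receptors. They were taken by name and matched to the GENCODE M21 identifiers of the gene tables. All 33 were found, among 55536 annotated genes of which 22028 are protein coding. The cells were regulatory T cells, a CD4 lineage that depends on the transcription factor Foxp3 and holds immune responses in check. They came as primary cells from a single male mouse, an adult of 4 months, of a strain named Foxp3CreERT2 x Rosa26YFP, in which a Foxp3 allele carries the inducible Cre and a Rosa26 allele the YFP reporter. The labels trace the cells to a bone marrow hematopoietic cell, and state neither a sort or gate nor a tamoxifen treatment. PolyA plus RNA of this 1 biological sample was sequenced as 2 technical libraries, called library 1 and library 2. There is 1 group and no second condition, so what follows gives levels, and the spread between libraries is technical.

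Interleukin receptors work as pairs or trios of chains. A private chain usually binds the cytokine, and a shared chain, such as the common gamma chain Il2rg, gp130 (Il6st), Il10rb, Il1rap or Il17ra, completes the signalling complex. Class I and class II receptors signal through Janus kinases and STAT factors, whereas the IL-1 and IL-17 receptor families recruit adaptor proteins that lead to NF-kappaB. In regulatory T cells, IL-2 and its receptor are required for survival, low surface IL-7 receptor is a common identifying feature, and the IL-33 receptor chain ST2 (Il1rl1) marks a subset found in tissues.

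Library 1 held 15821875 estimated counts on genes and library 2 held 16153671. A count of 0 allows up to 3 counts, which is 0.190 CPM (counts scaled to the library total) in library 1 and 0.186 in library 2; these limits and the 95% exact Poisson intervals below cover counting error only. All 8 regulatory T cell markers were at 1 TPM or more in each library (TPM is a level per transcript length, scaled to a fixed total), with Foxp3 at 43.2 and 36.2 TPM. Summed levels of other cell types were low: 2.27 and 2.22 TPM over 5 B cell genes, 1.57 and 2.23 TPM over 8 myeloid genes with Fcgr1 and Ly6g at 0, and 0.80 and 0.82 TPM over 6 mast cell and basophil genes with Ms4a2, Mcpt8 and Fcer1a at 0. Of the 5 NK and ILC1 genes, Nkg7 reached 78.6 TPM and Klrb1c 1.91 TPM, and Klra8 was at 0. The 2 CD8 genes summed to 13.0 and 16.2 TPM. Of 6 dendritic cell genes only Zbtb46 passed 1 TPM in both libraries and Itgax was at 0; of 6 stromal and epithelial genes only Epcam did, and Pdgfrb was at 0. In bulk RNA, a chain made by few cells cannot be told apart from one made at a low level by all.

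Of the 33 chains, 21 reached at least 1 TPM in each library and are called expressed, and 12 did not. Across all protein-coding genes 46.5% passed the same threshold. At 5 TPM in both libraries 18 chains remained. The median chain stood at 7.20 TPM, beside 0.625 TPM for all protein-coding genes. Among expressed genes alone the medians were close, 18.1 TPM for the chains and 18.5 TPM for all. When the chains were ordered by mean level, the ranges over both libraries were apart for 14 of the 32 neighbouring pairs and overlapped for 18. Il7r and Il27ra led, Il10rb followed, and then Il1r2 and Il4ra, whose ranges overlapped.

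**Figure D1:**
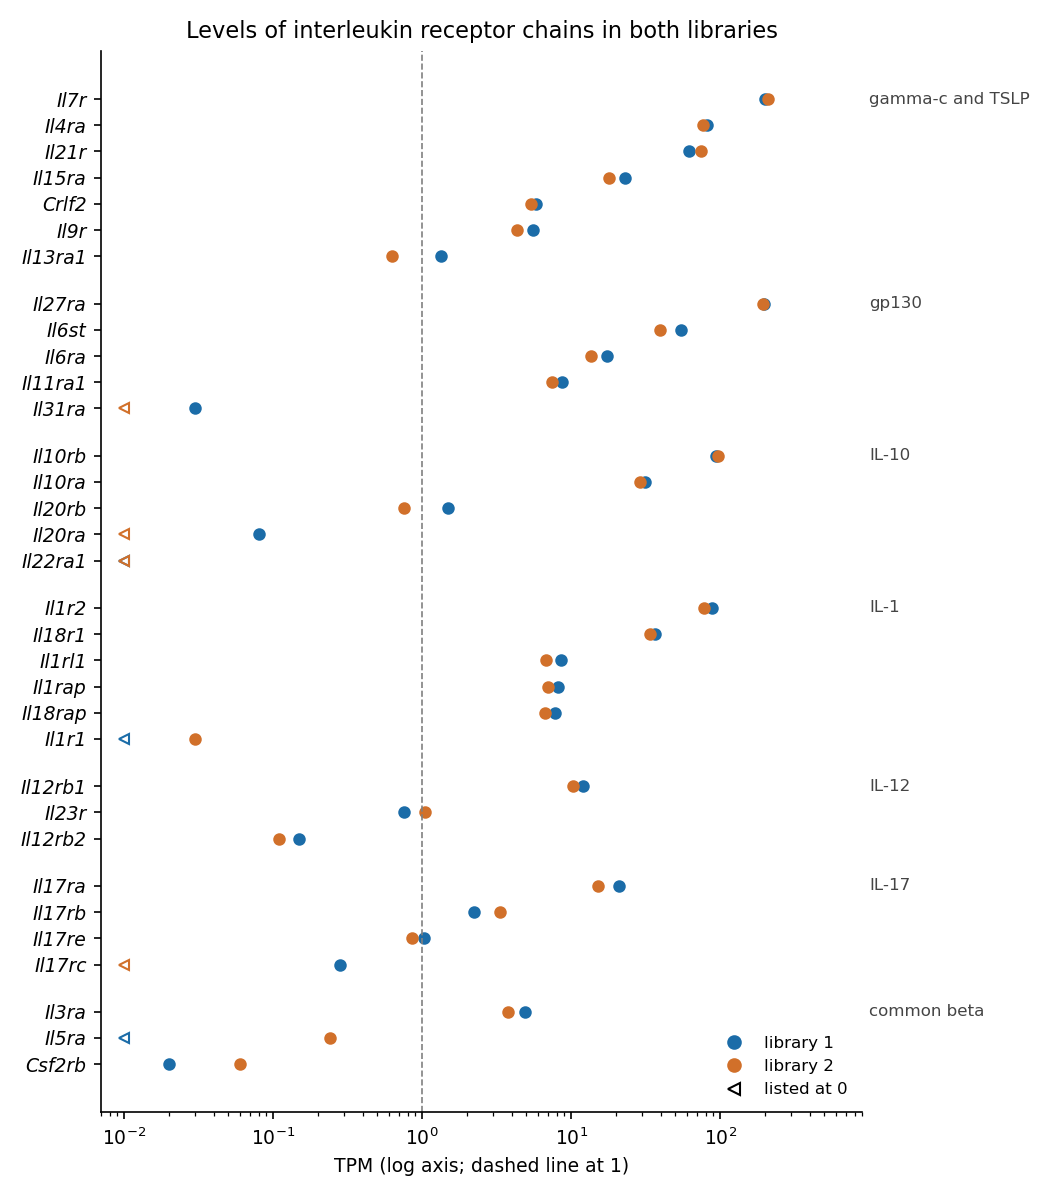
TPM of each of the 33 chains in library 1 (blue) and library 2 (orange), grouped by receptor family, on a log axis; open triangles at the left edge are chains listed at 0 and the dashed line marks 1 TPM. Il7r and Il27ra stand near 200.2 TPM, 4 chains straddle or touch the line, and 8 lie well to its left.

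Several of these genes give rise to RNAs that encode a receptor with or without its membrane part. The following coding sequences (GENCODE M21 transcripts, mm10, all on the plus strand) are shown because the transcript table divides the reads of Il1rl1, Il1rap, Il4ra and Il21r between such forms. Lower case marks the last 30 coding bases that both forms share, and capitals mark the bases where they part: up to the stop codon in the shorter form, and the first 60 bases in the longer one.
Il1rl1-203, 337 residues: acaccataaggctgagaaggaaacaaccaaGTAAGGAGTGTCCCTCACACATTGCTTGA
Il1rl1-202, 567 residues: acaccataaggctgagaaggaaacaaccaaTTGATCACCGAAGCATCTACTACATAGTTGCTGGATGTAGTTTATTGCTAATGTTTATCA
Il1rap-206, 360 residues: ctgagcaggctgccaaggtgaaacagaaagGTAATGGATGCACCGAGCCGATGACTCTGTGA
Il1rap-201, 570 residues: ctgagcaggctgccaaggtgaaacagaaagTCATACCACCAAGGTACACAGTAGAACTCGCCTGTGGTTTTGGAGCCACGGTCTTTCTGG
Il4ra-205, 230 residues: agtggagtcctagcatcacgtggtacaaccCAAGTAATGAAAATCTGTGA
Il4ra-201, 810 residues: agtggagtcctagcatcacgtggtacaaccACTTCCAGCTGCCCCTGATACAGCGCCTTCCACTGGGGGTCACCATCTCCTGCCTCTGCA
Il21r-202, 268 residues: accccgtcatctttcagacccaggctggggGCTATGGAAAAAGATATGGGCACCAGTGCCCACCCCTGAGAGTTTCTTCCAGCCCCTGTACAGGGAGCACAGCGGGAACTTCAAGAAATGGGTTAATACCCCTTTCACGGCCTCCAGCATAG
Il21r-201, 529 residues: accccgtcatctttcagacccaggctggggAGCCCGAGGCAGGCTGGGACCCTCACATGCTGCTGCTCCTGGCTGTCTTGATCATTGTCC
In each pair the shorter form ends at its own stop codon, and its coding sequence holds no hydrophobic stretch, here a run of 19 residues after residue 40 with a mean Kyte-Doolittle value of 1.6 or more. The longer form of each pair holds one.

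Of the chains that pair with the common gamma chain, counted with Crlf2 and Il13ra1, 6 of 7 were expressed, with a median of 20.4 TPM over the 7. The common gamma chain itself, Il2rg, stood at 1484.5 TPM in library 1 and 1488 in library 2. Il7r, the alpha chain of the IL-7 receptor (ENSMUSG00000003882.5, mm10 chromosome 15, 9505788 to 9530176, minus strand), was at 200.2 TPM (95% interval 196 to 205, 6883 counts) and 209 TPM (204 to 214, 7077 counts). This was the highest level of all 33 chains, 205 ± 6.18 TPM (SD, n = 2). Il4ra, which binds IL-4 (ENSMUSG00000030748.9, chromosome 7, 125552120 to 125579474, plus strand), was at 81.7 and 76.1 TPM from 3246 and 3165 counts. Il21r, the IL-21 binding chain (ENSMUSG00000030745.9, chromosome 7, 125603429 to 125633570, plus strand), was at 61.6 and 74.0 TPM from 1722 and 2190 counts. Its library 2 value approached that of Il4ra, but their ranges did not overlap.

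Il15ra, the high-affinity chain that binds and presents IL-15, stood lower, at 23.0 and 17.8 TPM. The signalling pair of the IL-15 receptor is Il2rb with Il2rg, and Il2rb was at 426 and 394 TPM. Crlf2, which pairs with Il7r to bind TSLP, was at 5.78 and 5.34 TPM from 81 and 70 counts. Il9r, the IL-9 binding chain, was at 5.57 and 4.33 TPM from 191 and 166 counts, and its range overlapped that of Crlf2. Il13ra1, which joins Il4ra in the type II receptor for IL-4 and IL-13, lay across the threshold. It had 1.34 TPM (95% interval 1.02 to 1.72, 61 counts) in library 1 and 0.630 TPM (0.425 to 0.899, 30 counts) in library 2. The intervals of both libraries did not overlap for this chain. Il13ra2, a decoy for IL-13, had 0 counts in both.

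Of the chains that assemble with gp130, 4 of 5 were expressed. Il27ra, the private chain of the IL-27 receptor (ENSMUSG00000005465.9, chromosome 8, 84030294 to 84042589, minus strand), was at 197 and 194 TPM from 5652 and 5522 counts, second of all chains. Il6st, which encodes gp130 (ENSMUSG00000021756.12, chromosome 13, 112464070 to 112510086, plus strand), was at 54.6 and 39.3 TPM. The private chain for IL-27 was thus 4.16 times the shared chain by mean TPM, whereas each gamma chain receptor had less of its private chain than of Il2rg. Il6ra, which binds IL-6, was at 17.5 and 13.6 TPM, and the mean of Il6st was 3.02 times that of Il6ra. Il11ra1, which binds IL-11, was at 8.74 and 7.41 TPM from 121 and 136 counts. Of its transcript windows of 50 bases, 46.3% also occur in its copies Gm13305 and Il11ra2, and its gene overlaps Galt on the same strand, at 54.0 TPM, so its level is uncertain. Il31ra had 1 and 0 counts, and its partner Osmr 0 and 2. Lifr, another partner of gp130, stood at 0.130 and 0.120 TPM.

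In the IL-10 receptor group both chains of the IL-10 receptor were expressed, and the 3 remaining chains were not. Il10rb, the shared chain (ENSMUSG00000022969.13, chromosome 16, 91406164 to 91425834, plus strand), was at 94.5 and 97.3 TPM. Il10ra, which binds IL-10 (ENSMUSG00000032089.16, chromosome 9, 45253837 to 45269149, minus strand), was at 31.2 and 28.8 TPM. The shared chain was therefore 3.19 times the private one. Of the Il10rb windows 13.9% are shared with other genes, mainly the overlapping Gm21970. Il20rb was at 1.48 TPM (0.991 to 2.13, 29 counts) and 0.750 TPM (0.429 to 1.22, 16 counts), so it straddled the threshold with overlapping intervals. Il20ra had 1 and 0 counts, and Il22ra1, the epithelial chain for IL-22, was the only chain with 0 counts in both libraries. For Il22ra1 this allows up to 0.0957 TPM in library 1 and 0.0913 in library 2.

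In the IL-1 receptor family 5 of 6 chains were expressed, and Il1r1, the signalling receptor for IL-1, was the exception. Il1r2, a decoy that binds IL-1 without signalling (ENSMUSG00000026073.13, chromosome 1, 40074079 to 40125231, plus strand), was at 88.5 TPM (84.0 to 93.2, 1447 counts) and 77.6 TPM (73.5 to 82.0, 1307 counts). Il1r1 had 0 counts in library 1 and 2 counts, or 0.0300 TPM, in library 2. In library 1, where a count of 0 allows up to 0.0659 TPM, Il1r2 was at least 1342-fold higher than Il1r1. The signalling chain was not detectable in library 1 at this depth, whereas only Il7r, Il27ra and Il10rb had a higher mean than the decoy.

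Il18r1, which binds IL-18 (ENSMUSG00000026070.15, chromosome 1, 40465552 to 40500854, plus strand), was at 36.5 and 34.0 TPM from 1351 and 1313 counts. Its signalling partner Il18rap was lower, at 7.75 and 6.64 TPM. Il1rl1, the ST2 chain that binds IL-33 (ENSMUSG00000026069.15, chromosome 1, 40429570 to 40465415, plus strand), was at 8.55 and 6.82 TPM. Il1rap, the accessory chain for IL-1 and IL-33, was at 8.15 and 7.02 TPM. The ranges of Il1rl1, Il1rap and Il18rap overlapped, so these 3 chains did not differ beyond their technical spread. Of the regulators of this family, Sigirr, a receptor that restrains IL-1 family signals, was at 154 and 150 TPM, and Il18bp, a soluble trap for IL-18, at 4.99 and 4.21 TPM.

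Apart from Il1rap on chromosome 16, the 5 chains of this family lie with Il1rl2, a receptor for IL-36, in 1 cluster on chromosome 1. No other protein-coding gene lies between them, over 478 kb. Levels differed along it: Il1r2 at 83.1 ± 7.67 TPM, Il1r1 at 0.0150 ± 0.021, Il1rl2 at 1.03 ± 0.042, Il1rl1 at 7.69 ± 1.22, Il18r1 at 35.3 ± 1.73 and Il18rap at 7.20 ± 0.785 TPM (SD, n = 2). Only 0.137 kb separates Il1rl1 from Il18r1 on the same strand, and their means differed by more than the spread of either. Il1rl2 stood on the threshold, at 1.00 and 1.06 TPM.

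**Figure D2:**
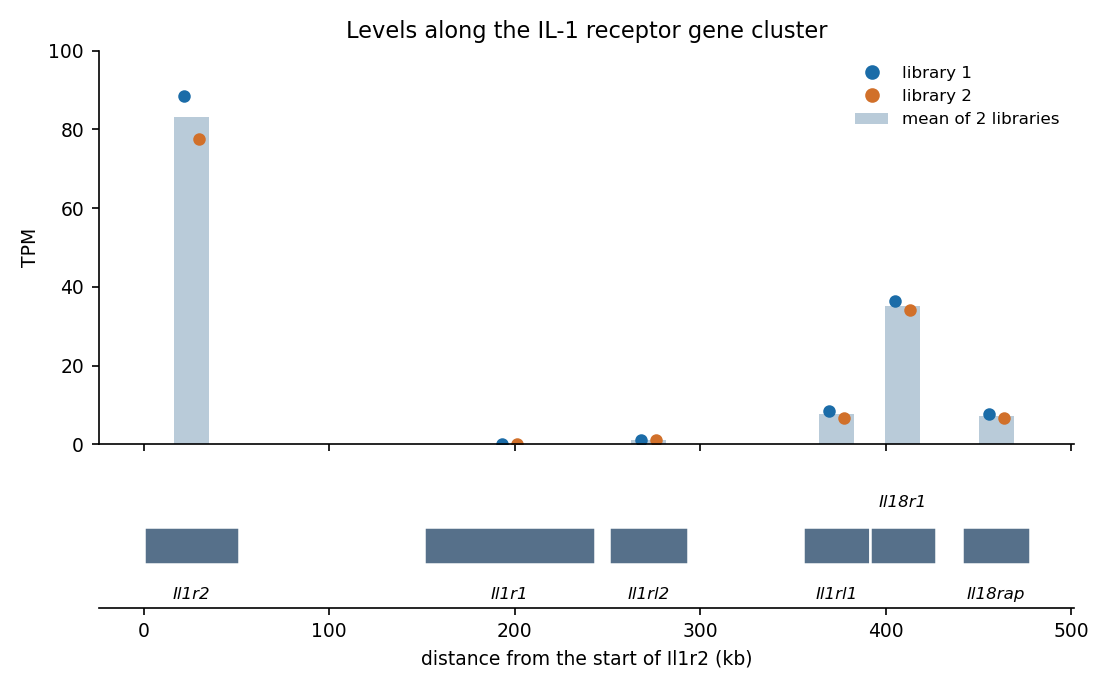
Upper panel, TPM in library 1 (blue) and library 2 (orange) with the mean as a bar for the 6 genes of the IL-1 receptor cluster; lower panel, their extents in kb from the start of Il1r2. The bars of Il1r2 and Il18r1, at 83.1 and 35.3 TPM, stand apart from Il1r1 and Il1rl2 between them.

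Other neighbouring receptor genes also stood at unequal levels. Il6st, at 47.0 ± 10.8 TPM, lies 9.81 kb from Il31ra, at 0.0150 ± 0.021 TPM, with no coding gene between. Il15ra, at 20.4 ± 3.65 TPM, lies 12.1 kb from Il2ra, at 266 ± 11.1 TPM. Il4ra and Il21r, 24.0 kb apart on chromosome 7, were both high, at 78.9 ± 3.92 and 67.8 ± 8.75 TPM. The pairs Il12rb2 with Il23r, Il17re with Il17rc, Csf2rb with Csf2rb2 and Il22ra1 with Ifnlr1 were low on both sides, none of them with a mean above 0.945 TPM.

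In the IL-12 receptor group the shared chain was expressed without either partner. Il12rb1, common to the IL-12 and IL-23 receptors, was at 12.0 and 10.2 TPM from 352 and 342 counts. Il12rb2, which completes the IL-12 receptor, was at 0.150 and 0.110 TPM. Il23r, which completes the IL-23 receptor, was at 0.760 TPM (0.482 to 1.14, 23 counts) and 1.04 TPM (0.716 to 1.46, 33 counts). The Il23r intervals of both libraries contain 1 TPM, so its side of the threshold is not settled at this depth. Il12rb2 overlaps Serbp1 on the opposite strand, which was at 194 TPM, and the 2 gene tables disagreed on it: 5.58 and 4.36 estimated counts in the M21 table against 22 and 20 counts in the smaller M4 table. Whether reads of Serbp1 enter the M4 value was not tested.

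In the IL-17 receptor family Il17ra and Il17rb were expressed and Il17rc and Il17re were not. Il17ra, the shared chain (ENSMUSG00000002897.5, chromosome 6, 120463247 to 120487559, plus strand), was at 21.1 and 15.1 TPM from 1086 and 982 counts. Il17rb, which binds IL-25, was at 2.23 and 3.33 TPM from 42 and 72 counts. Il17rb overlaps Actr8 on the opposite strand, which was at 31.0 TPM in each library. Whether reads of Actr8 enter the Il17rb value was not tested. Il17re, which binds IL-17C, stood at 1.03 TPM (0.684 to 1.49) and 0.860 TPM (0.501 to 1.38), again with intervals that contain 1 TPM. Il17rc, needed for IL-17A and IL-17F, had 6 and 0 counts, and in library 2 up to 0.227 TPM is allowed. Il17rd, another chain of this family, was at 0.140 and 0.150 TPM.

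Of the 3 chains in the common beta group 1 was expressed, and the median over them was 0.120 TPM. Il3ra, the IL-3 binding chain, was at 4.89 and 3.77 TPM from 68 and 83 counts. Csf2rb, the signalling chain for IL-5 and GM-CSF and one of the beta chains for IL-3, had 1 and 3.60 estimated counts. Its mouse paralog Csf2rb2, a beta chain that serves IL-3 alone and can pair with Il3ra without Csf2rb, had 0 and 5.40, or 0 and 0.0900 TPM. Csf2rb and Csf2rb2 share reads (12.3% of Csf2rb windows occur elsewhere, mainly in Csf2rb2), but both together remained under 10 counts in each library. Il5ra had 0 and 7 counts. All 7 were assigned to Il5ra-203, a transcript that encodes 76 residues, and the M4 table gave Il5ra 0 counts in both libraries. Csf2ra, the GM-CSF binding chain, was at 2.06 and 1.63 TPM.

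Which receptors could be complete at the RNA level was judged from 25 combinations of obligate chains, each complete when all its chains were at 1 TPM or more in both libraries. By this rule 13 were complete and 12 were not. The presence of RNA says nothing of surface protein or of both chains being in the same cell. Complete were the receptors for IL-4 (type I), IL-7, IL-9, IL-15, IL-21, TSLP, IL-6, IL-11, IL-27, IL-10, IL-33, IL-18 and IL-25. The limiting chain, the one with the lower mean, was gp130 for IL-27, Il2rb for IL-15, Il1rap by a narrow margin for IL-33, Il18rap for IL-18 and the cytokine-specific chain for the others. The IL-9 receptor was the most uneven, with Il2rg at 300.3 times Il9r, and the IL-33 receptor the most even, with Il1rl1 at 1.01 times Il1rap. Which of these chains was lower depended on the library, Il1rap in library 1 and Il1rl1 in library 2. The smallest limiting level among the complete receptors was that of Il17rb in the IL-25 receptor, 2.78 ± 0.778 TPM.

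Of the 12 incomplete receptors, 8 lacked exactly 1 chain by this rule. IL-1 signalling lacked Il1r1, IL-3 lacked Csf2rb, with the alternative Csf2rb2 also under 1 TPM, IL-12 lacked Il12rb2 and IL-23 lacked Il23r. IL-22 lacked Il22ra1, IL-17A and IL-17F lacked Il17rc, IL-17C lacked Il17re, and the type II IL-4 and IL-13 receptor lacked Il13ra1. The IL-5 receptor, the IL-31 receptor and both IL-20 receptors lacked both chains.

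**Figure D3:**
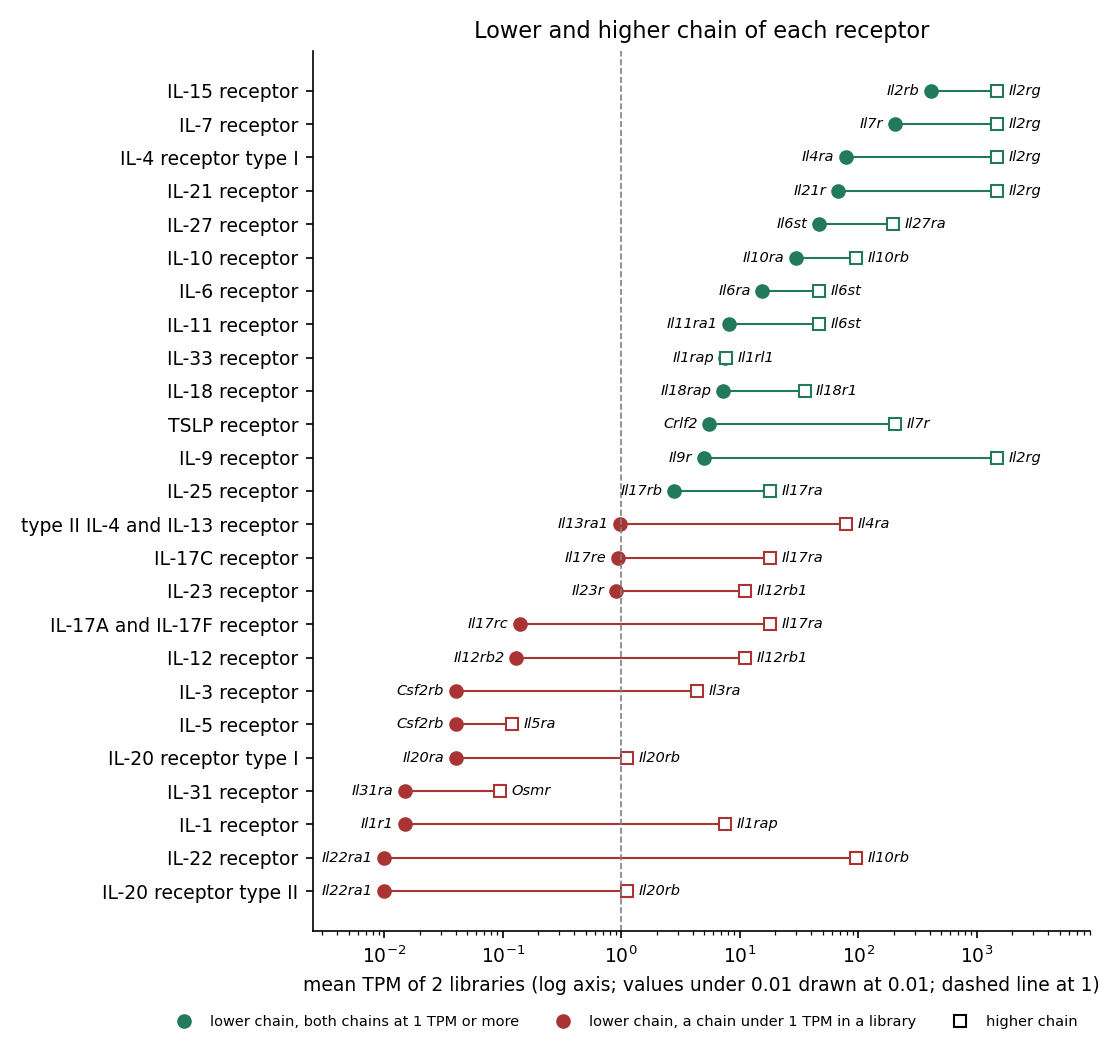
Mean TPM of the lower chain (filled circle) and the higher chain (open square) of each of the 25 receptors on a log axis, joined by a line; green receptors have every chain at or above 1 TPM in each library and red ones do not. The green lower chains run from Il2rb at 410 TPM down to Il17rb at 2.78 TPM, and 3 red ones, limited by Il13ra1, Il17re and Il23r, lie just left of the dashed line at 1 TPM.

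Under 12 ways of setting the threshold or the unit, the main one included, 10 receptors were complete in every case: those for IL-4 (type I), IL-7, IL-15, IL-21, TSLP, IL-6, IL-11, IL-27, IL-10 and IL-18. The IL-15 entry holds Il2rb and Il2rg, which are not among the listed chains, and does not require Il15ra. In the settings on a hydrophobic stretch and on coding length, such partner chains were counted by all their coding transcripts. The receptors for IL-5, IL-31, IL-22, IL-1, IL-17A and IL-17F and both IL-20 receptors, 7 in all, were complete in none. The remaining 8 changed with the setting. The receptors for IL-23, IL-17C and the type II combination were gained at 0.5 TPM, and each was also gained in 1 library alone. IL-9 and IL-25 were lost at 5 TPM.

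The transcript table shows what kind of RNA lay behind these levels, and for 3 of the 21 expressed chains, Il4ra, Il17ra and Il17rb, the leading transcript in both libraries was annotated as non-coding or as a target of nonsense-mediated decay. The Il4ra-205 form of Il4ra, annotated as a decay target, held 66.6% and 66.5% of Il4ra TPM and 76.0% of the Il4ra counts in each library. Il4ra-201, the full receptor of 810 residues, held 11.6% and 12.0% of TPM, or 9.47 and 9.12 TPM. Il4ra-205 carries an exon of 114 bases at chromosome 7, 125571934 to 125572047, that Il4ra-201 lacks, and its reading frame stops within it, as the sequences above show. Mouse cells are known to make a soluble IL-4 receptor from an Il4ra RNA with an added exon; whether Il4ra-205 is translated was not tested. Il4ra-205 also ends 1507 bases short of Il4ra-201 and has 0 bases that no other Il4ra transcript holds, so its share rests on the authors' estimate of how reads divide.

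By the deposited division of reads, Il17ra likewise had little coding RNA. Its retained-intron transcript Il17ra-203 held 72.3% and 83.1% of TPM, and the coding Il17ra-201 (864 residues) 7.14% and 13.0%, or 1.5 and 1.97 TPM. Il17ra-203 ends 3830 bases short of Il17ra-201, and their shares rest on the authors' estimate of how reads divide. Counted by coding transcripts alone, Il17ra therefore stood just above the threshold. Il17rb fell below it on the same measure, with 0 and 0.620 TPM of coding transcripts, so the IL-25 receptor was not complete by coding RNA. The coding Il17rb-201 and the decay target Il17rb-203 each have only 4 bases that no other Il17rb transcript holds. Their division therefore rests on the authors' estimate and is poorly resolved. Il20rb, under the threshold in any case, had 0.330 and 0.120 TPM of coding transcripts.

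For Il21r the division was between coding forms. Il21r-201 (529 residues) held 47.4% and 52.7% of TPM, and Il21r-202 (268 residues) held 47.1% and 42.9%. Il21r-202 has 0 bases that no other Il21r transcript holds, so this division rests on the authors' estimate. Il21r-202 lacks the exon of 97 bases at chromosome 7, 125629738 to 125629834, where its frame departs from that of Il21r-201. Transcripts with a hydrophobic stretch gave Il21r 29.2 and 39.0 TPM, still above the threshold in both libraries.

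Il1rl1, known to yield both the membrane form of ST2 and a secreted form that traps IL-33, was mostly the membrane form. Il1rl1-202 (567 residues) held 87.1% and 97.7% of TPM from 486 and 457 counts. The secreted-type Il1rl1-203 (337 residues) held 12.6% and 2.27% from 35.1 and 5.26 counts, so its share differed between the libraries more than that of any form of Il4ra. Il1rap-201 (570 residues) held 73.6% and 69.0% of Il1rap TPM, and the secreted-type Il1rap-206 (360 residues) 7.84% and 17.0% from 17.9 and 35.2 counts. The membrane forms led in both chains of the IL-33 receptor and in both libraries.

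Il18r1 had a different division. Its forms of 537 residues, Il18r1-202 and Il18r1-206, held 41.2% and 24.6% of TPM in library 1 and 43.8% and 18.0% in library 2. Forms of 372 residues, Il18r1-203 and Il18r1-204, held 11.3% and 23.0% in library 1 and 10.01% and 19.3% in library 2. Il18r1-206 has 0 bases and Il18r1-204 has 31 that no other Il18r1 transcript holds, so these shares too rest on the authors' estimate. The shorter forms hold a hydrophobic stretch but stop before the part of the longer form that includes the TIR signalling domain. In Il7r the full chain Il7r-201 (459 residues) held 70.7% and 65.5% of TPM and 89.3% and 88.1% of counts, the rest of TPM lying mostly in short processed transcripts. In Il27ra the only coding form, Il27ra-201, held 80.1% and 74.0% of TPM. Il1r2-201, of 410 residues, held 94.8% and 92.5% of the decoy's TPM.

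**Figure D4:**
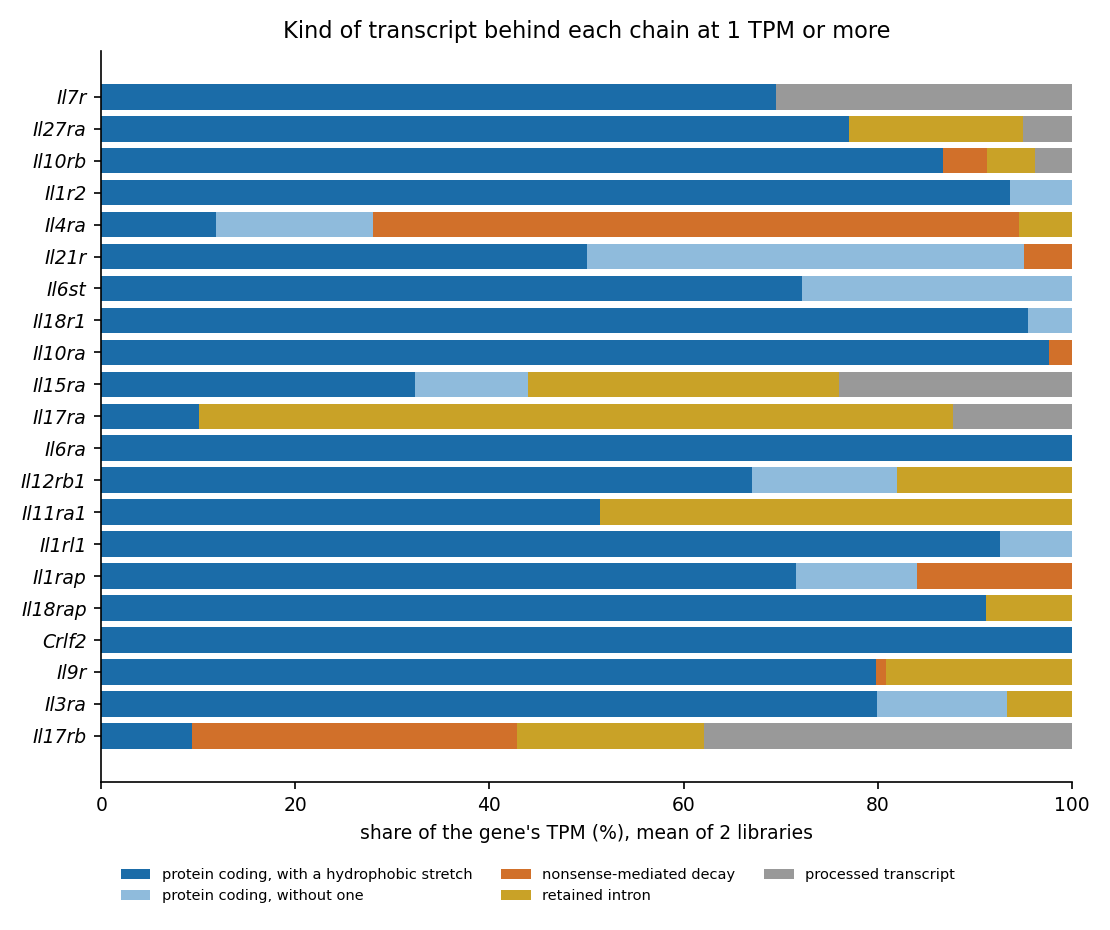
Share of each expressed chain's TPM (%, mean of 2 libraries) by kind of transcript, for the 21 chains at 1 TPM or more. Il4ra, Il17ra and Il17rb have little blue, the coding RNA, while Il6ra and Crlf2 are all dark blue.

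The listed genes that act downstream of these receptors all passed the threshold of 1 TPM in both libraries, which 46.5% of all protein-coding genes passed. All 11 Janus kinase and STAT genes were at 1 TPM or more, among them the kinase gene Jak1 at 296 ± 30.7 TPM. Stat6, which conveys IL-4 signals, stood at 140 ± 16.0 TPM and Stat3, used by IL-6, IL-10, IL-21 and IL-27, at 83.3 ± 7.71 TPM. All 12 genes of IL-1 receptor signalling passed, among them the adaptor Myd88 at 50.9 ± 5.29 TPM and the inhibitor Irak3 lowest at 2.62 ± 1.00 TPM. All 8 of IL-17 receptor signalling passed, among them the adaptor Traf3ip2 at 27.7 ± 0.601 TPM. The gene Traf6 is in both the IL-1 and the IL-17 list. Of 9 genes of receptor shedding and trafficking all passed, with the sheddases Adam10 at 52.4 ± 4.82 and Adam17 at 37.1 ± 0.912 TPM. Of 16 partner and regulator chains 7 passed.

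The libraries were compared to see how far technical spread reaches, since both come from the same cells. Of the 33 chains 26 had enough counts, 10 or more in sum, and 8 of these differed in an exact two-sided binomial test with Benjamini-Hochberg adjustment over 17458 genes. Over all genes tested the same test called 25.1%. The chains' median size of difference was 0.20 on the log2 scale, beside 0.22 for all genes. Higher in library 2 were Il21r (log2 ratio 0.32, exact test adjusted p = 4.37e-10), Il17rb (0.74, adjusted p = 0.0368) and Il10rb (0.13, adjusted p = 0.0190). Higher in library 1 were Il6st (log2 ratio -0.41, adjusted p = 1.78e-24), Il13ra1 (-1.04, adjusted p = 0.00705), Il1r2 (-0.18, adjusted p = 0.00928), Il6ra (-0.19, adjusted p = 0.0220) and Il17ra (-0.17, adjusted p = 0.0295). Il7r did not pass, at a log2 ratio of 0.01 (adjusted p = 0.808).

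With a difference of at least 1.5-fold also required, Il17rb and Il13ra1 were the 2 chains called, where 8.80% of all genes were. The binomial test allows for counting error alone. An edgeR exact test was also run, with its dispersion estimated from these same 2 libraries treated as 1 group. The differences under test thus entered the dispersion, so few calls were favoured in advance and are no independent check. The edgeR exact test with a common dispersion, a coefficient of variation of 13.0% between the libraries, called 0 of the chains and 2.10% of all genes. In this edgeR exact test 1 chain, Il13ra1, had an unadjusted p under 0.05 (exact test p = 0.0141, adjusted p = 0.262). Among expressed chains 17 had the higher TPM in library 1 and 4 in library 2. This tally holds for TPM only, and the same share over all genes was not computed. By scaled counts, Il18rap, Il15ra, Il11ra1 and Il3ra of the 17 were instead higher in library 2, at log2 ratios of 0.05, 0.06, 0.14 and 0.26. The 4 chains higher in library 2 by TPM were also higher there by scaled counts. By the binomial test, which called 25.1% of all genes in either direction, 7 of 11 Janus kinase and STAT genes were higher in library 1 and 0 in library 2. Of the 8 genes of IL-17 receptor signalling 4 were higher in library 1 and 0 in library 2, of the 12 of IL-1 receptor signalling 2 and 1, of the 9 of shedding and trafficking 3 and 1, and of the 8 regulatory T cell markers 2 and 2. In either direction, the test called 29.7% of genes with summed counts of 50 or more. The share of all genes called higher in library 1 alone was not computed, so these tallies have no like background.

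**Figure D5:**
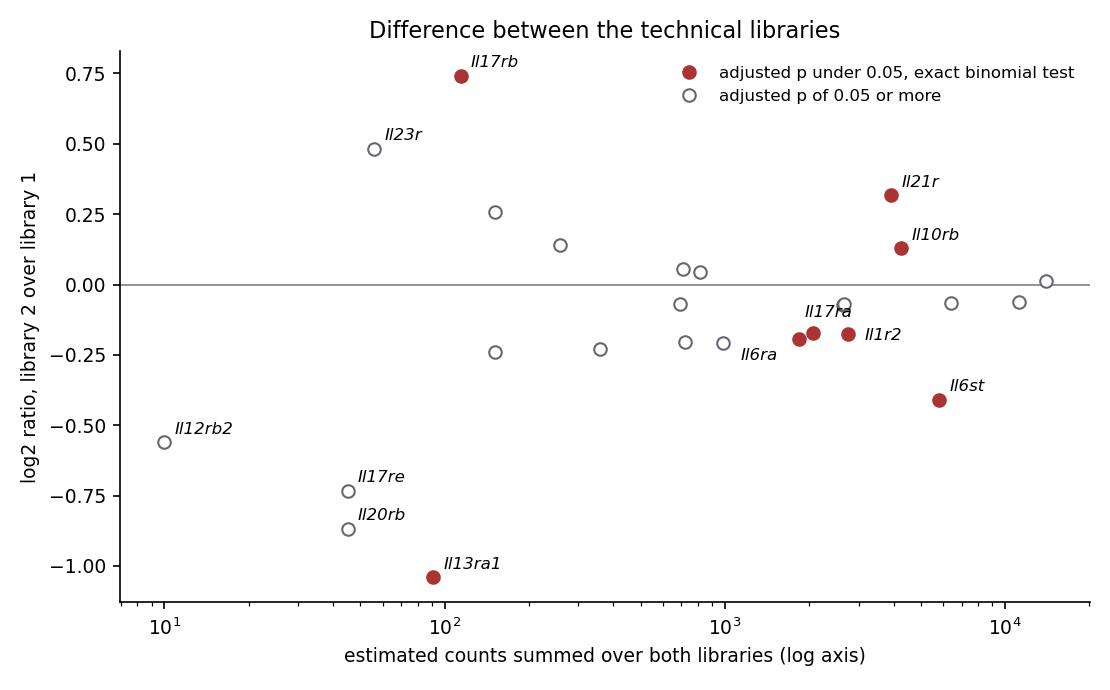
Log2 ratio of library 2 over library 1 for the 26 chains tested, against their estimated counts summed over both libraries (log axis); filled points passed the exact binomial test. Il17rb, at 0.74, and Il13ra1, at -1.04, lie farthest from 0 among filled points, while Il6st, at -0.41, has far more counts.

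The smaller gene table, made with the GENCODE M4 annotation, held 3746426 and 3680387 counts and all 33 chains. Its counts were a median of 38.3% and 39.1% of the M21 estimate for the chains, close to the share of all tested genes, which was 40.1% and 39.3%. In these counts the binomial test called 5 chains, Il21r and Il17rb higher in library 2 and Il6st, Il6ra and Il17ra higher in library 1, where it called 10.5% of all genes. All 5 were also called in the M21 table, in the same direction. Il13ra1, Il1r2 and Il10rb, called in the M21 table, were not called in M4 counts, at log2 ratios of -0.10, -0.06 and 0.12. Il13ra1 had 13 and 12 M4 counts. Il6ra had 969 and 865 estimated counts against 246 and 132 M4 counts, so its log2 ratio was -0.19 in the M21 table and -0.89 in the M4 table. With 10 or more M4 counts in both libraries as the rule, 25 chains and 17 receptors passed, the additional receptors being those for IL-12, IL-23, IL-17C and the type II combination.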

How the data were processed

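PolyA plus RNA-seq of 1 sample of mouse regulatory T cells was deposited as 2 technical libraries, each with 2 gene tables and 1 transcript table on mm10. The main gene table and the transcript table use GENCODE M21, and their estimated counts (expected counts) were deposited unscaled. The deposited TPM values were scaled over all features of a table, and the deposited FPKM values for length and depth. Each transcript's share in its gene is a percent that the authors deposited in the transcript table. A smaller gene table has deposited whole-number counts per gene on GENCODE M4. The sources used here name no aligner, counter, strand setting or version.

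The members, receptor combinations, 13 gene lists and tests were chosen with earlier results of these data known, and the hydrophobic stretch was chosen after the data were seen. All 33 members, the partner chains, the genes of the lists at 1 TPM or more and the top 4 of a list could be named. A chain was called expressed when each library gave it at least 1 TPM. Estimated counts were rounded and compared by an exact two-sided binomial test conditional on their sum, with TMM scaling in edgeR 4.0.16 (R 4.3.3), over genes whose counts summed to at least 10, at an adjusted p of 0.05; it compares libraries, not conditions. The test was also run on simulated counts, but that outcome is not given here and no result rests on it. Coding sequences were translated from GENCODE M21 transcripts with biopython 1.88, since protein records were not used here, so no motif was searched in proteins. Alternatives were lower and higher thresholds, the posterior mean TPM, FPKM, count minimums, coding transcripts, M4 counts, DESeq2 1.42.0 size factors, total count scaling, an edgeR test with a common dispersion and each library alone.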

Additional observations from a re-analysis of the deposited data

How the results depend on the processing

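Expressed chains numbered 21 and complete receptors 13, and across 11 other settings they ran from 18 to 25 and from 11 to 17. With 1 library left out the counts were 22 to 24 chains and 14 to 15 receptors. The posterior mean TPM gave 24 and 15, among them the IL-3 receptor, since Csf2rb then stood at 1.04 TPM from 1 and 3.60 counts. Coding transcripts alone, and transcripts with a hydrophobic stretch, each gave 20 and 12, without IL-25. Transcripts with 90% of the longest coding sequence gave 19 and 11, also without IL-33. The longest Il1rap form, of 685 residues, set the length required and had 0 counts. The form of 640 residues met it with 2.09 and 0 counts, and the leading Il1rap-201, of 570 residues, was too short. The last 2 settings were chosen after seeing the data. The 8 chains that differed between libraries became 2 with a fold of 1.5, 5 in M4 counts and 0 under edgeR. The edgeR dispersion came from the same libraries that were compared, so that setting is no independent check. DESeq2 size factors and total count scaling left 8, and no count filter 7. No paired analysis was possible because both libraries belong to a single group. Il13ra1, Il17re, Il20rb and Il23r lay on both sides of 1 TPM. The Poisson intervals of Il17re, Il20rb and Il23r contained 1 TPM in each library, and those of Il13ra1 did not. The main binomial test called Il13ra1 (log2 ratio -1.04, adjusted p = 0.00705) but not Il20rb (-0.87, adjusted p = 0.149). Il13ra1 was not called in M4 counts (13 and 12, log2 ratio -0.10) or by the edgeR exact test (adjusted p = 0.262). Why these chains lay on both sides was not tested. Samples from other mice were not analysed here, so variation between animals is unknown.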

Other observations

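The order of the chains differed when only coding transcripts with a hydrophobic stretch were counted. On that measure Il4ra stood at 9.47 and 9.12 TPM, beside 29.2 and 39.0 TPM for Il21r, its neighbour on chromosome 7, although by all transcripts Il4ra was the higher. There too, Il15ra stood at 5.38 and 7.35 TPM, Il11ra1 at 3.75 and 4.45 TPM and Il6st at 39.9 and 28.0 TPM. Il7r, at 143 and 141 TPM, and Il27ra, at 157 and 144 TPM, remained the highest, now with Il27ra above Il7r in both libraries. These values rest on the deposited division of reads among transcripts, which was not tested.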
